A study of Mus musculus with 8 samples.

Results

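Control myotubes kept for 12 h in 10 mM glucose were compared with control myotubes kept for the same time in 1 mM glucose. The comparison rests on 4 of the series' 8 arrays, 2 per concentration, chosen by their labels. All 4 came from C2C12, an established mouse line of myoblasts that can be made to fuse into multinucleate myotubes. The cells had been transduced as myoblasts with a siScramble retrovirus expressing a control shRNA and were then differentiated. The other 4 arrays held the same glucose levels after transduction with an shRNA against Baf60c (gene symbol Smarcd3), which encodes a subunit of a SWI/SNF chromatin remodeller. They enter here only through the shared estimate of the spread and a test of the difference between responses. Total RNA was read on Affymetrix Mouse Gene ST 2.1 arrays, and the design text calls the 2 samples of a group independent biological replicates. The model has limits: 1 cell line grown outside the body, a single time point, no other glucose concentration, and a viral control rather than untransduced cells. Since different dishes were held at each concentration, a gene that was higher at 10 mM may equally be described as lower at 1 mM.

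Glucose that enters a muscle cell is phosphorylated and feeds glycolysis, glycogen, the pentose phosphate pathway and the hexosamine pathway, which supplies the sugars for protein glycosylation. The transcription factors MondoA and ChREBP sense phosphorylated glucose and drive Txnip, which in turn restrains glucose uptake. Cells short of glucose glycosylate proteins poorly and load their endoplasmic reticulum (ER) with unfolded proteins. The unfolded protein response then raises chaperones through ATF6 and XBP1, and the kinase PERK raises ATF4, which drives amino acid transport and synthesis.

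Of 13308 genes tested, 3372 (25.3%) were called with limma at a Benjamini-Hochberg adjusted p under 0.05. At 10 mM glucose 1761 of them (13.2%) were higher and 1611 (12.1%) were lower than at 1 mM. The replicates of the 2 groups did not overlap in any of the 3372 called genes, against 64.4% of all tested genes. Changes below are differences of mean log2 expression, 10 mM minus 1 mM, with the standard error (SE) of the fit and n = 2 arrays per group. Their median over all tested genes was -0.01 and the middle of the distribution ran from -0.32 to 0.33 (quartiles). Called changes of at least 2-fold numbered 806 upward (6.06%) and 535 downward (4.02%), and those of at least 8-fold 22 upward (0.165%) and 20 downward (0.15%). The 4-fold threshold was passed by 140 upward (1.05%) and 88 downward (0.661%). At 16-fold the balance turned, with 1 gene higher (0.00751%) and 6 lower (0.0451%). A further 17 processing alternatives were run, and 817 of the genes called higher (6.14%) and 704 of those called lower (5.29%) kept their call in each alternative that tested them. Called genes named below belong to these unless the alternatives that lost the call are given.

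Replicates correlated at r = 0.988 across genes in both groups, and arrays of different glucose levels at 0.949 to 0.952, where the points are genes of the same arrays. The median absolute difference was 0.18 and 0.19 log2 units between replicates and 0.32 between the glucose groups. The median SE of a change was 0.17, which gives a 95% interval reaching 0.41 to either side. The number of arrays limits this precision, so a gene that was not called may still differ. The probe set shared by Chpf2 and Smarcd3, the only one on the array that carries the knockdown target, read 5.62 and 5.40 in control cells at 1 mM and 6.27 and 6.09 at 10 mM, above all 4 knockdown arrays (2.77 to 4.49).

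**Figure D1:**
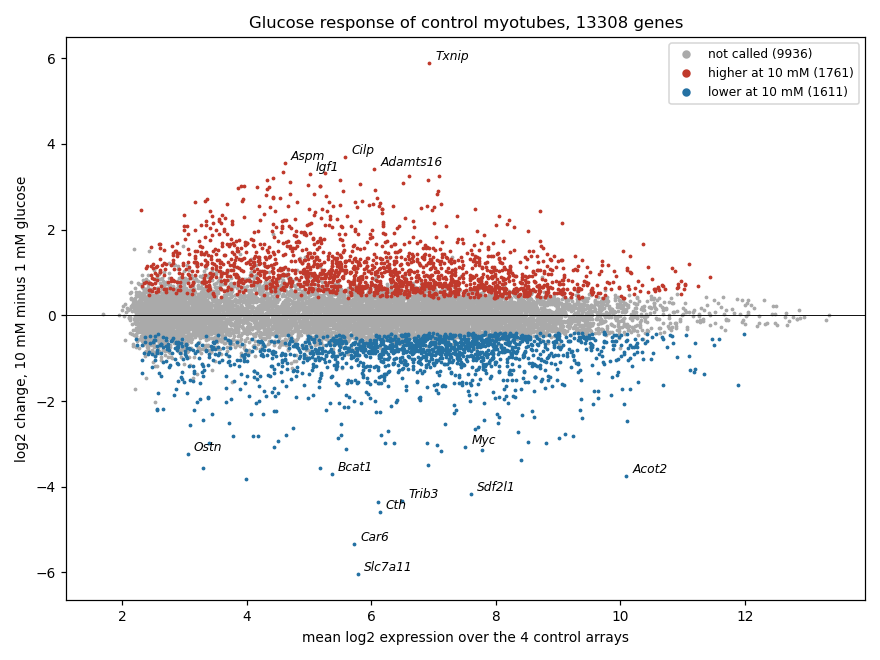
Log2 change (10 mM minus 1 mM glucose, y axis) against mean log2 expression over the 4 control arrays (x axis), 1 point per tested gene. Red marks the 1761 genes called higher at 10 mM, blue the 1611 called lower and grey the rest. Txnip stands apart at the top, at 5.89, and Slc7a11, Car6, Cth, Trib3 and Sdf2l1 are among the 6 lowest.

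Predicted genes aside, the 12 largest called increases were led by Txnip and held genes of mitosis, matrix and calcium handling. After Txnip came Cilp, a cartilage matrix protein, at 3.70 ± 0.28 on the log2 scale, the spindle gene Aspm at 3.55 ± 0.18 and the metalloprotease gene Adamts16 at 3.40 ± 0.23. Cilp read 3.80 and 3.64 at 1 mM and 7.36 and 7.48 at 10 mM. Dync1i1 (a dynein intermediate chain), the kinetochore gene Cenpf, Igf1, the ectoenzyme gene Enpp3, Top2a, Mrln, the calcium pump gene Atp2b4 and the spindle gene Hmmr rose between 8.92-fold and 10.1-fold. By the same rule the 12 largest decreases were Slc7a11, Car6, Cth, Trib3, Sdf2l1, Acox2, Acot2, Bcat1, Cdsn, Atf3, Ddit3 and Ostn. Car6, a secreted carbonic anhydrase, read 8.56 and 8.23 at 1 mM and 3.03 and 3.08 at 10 mM, a 40.5-fold fall (-5.34 ± 0.16, adjusted p = 1.14e-05). Cdsn, which encodes corneodesmosin of skin, fell 11.9-fold but with arrays at 4.16 and 2.63 at 10 mM, the widest replicate gap among these 12. Signals under a log2 value of 3 lie near the lower end of the scale. A group mean stood there for Aspm, Dync1i1, Mrln and Hmmr at 1 mM and for Slc7a11, Acox2 and Ostn at 10 mM, and such folds may be understated.

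**Figure D2:**
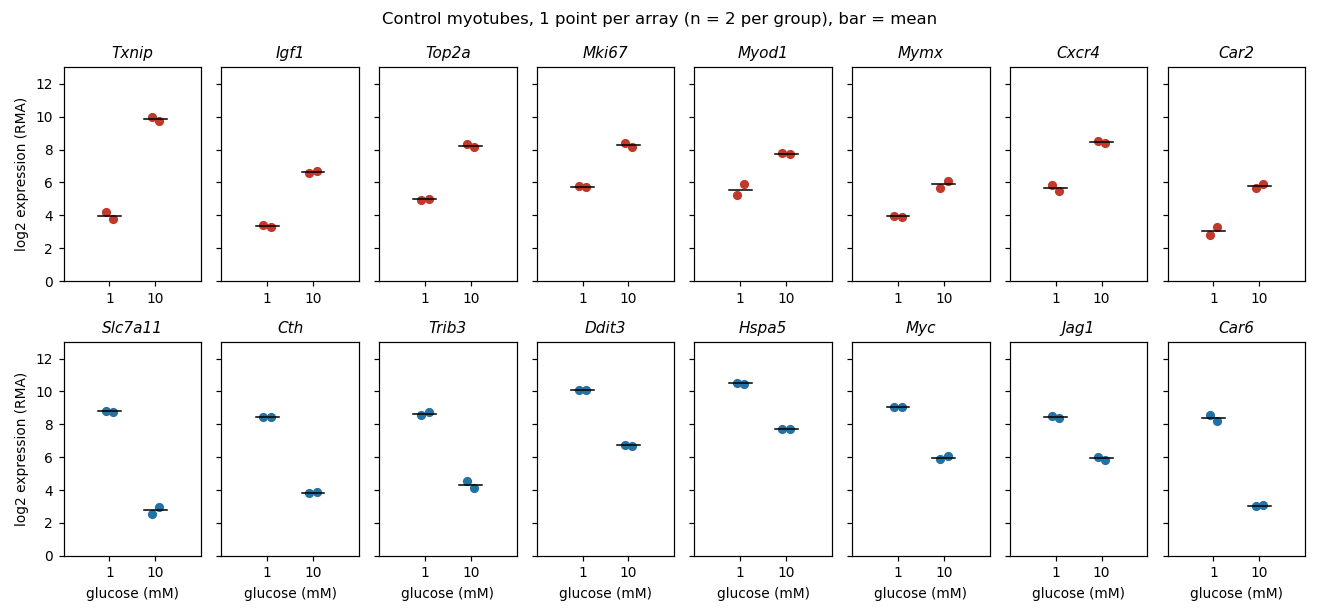
Log2 expression (y axis) of 16 genes at 1 and 10 mM glucose (x axis), 1 point per array and a bar at each group mean of 2 arrays. Red genes were called higher at 10 mM and blue genes lower. In each panel both arrays of one group lie above both arrays of the other.

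Among 8 tested genes of glucose sensing, 3 rose, 0 fell and 5 were not called. Txnip read 4.17 and 3.79 at 1 mM and 9.97 and 9.77 at 10 mM. Both 10 mM arrays stood far above both 1 mM arrays, a 59.4-fold increase (5.89 ± 0.24, adjusted p = 4.53e-05). Its paralog Arrdc4, another MondoA target, stayed dim on every array (2.45 and 2.92 against 2.89 and 3.0) and was not called. Arrdc3, a related arrestin-like gene, rose 1.48-fold, a call lost in 4 alternatives (only the control arrays, or without either 1 mM array or 10 mM replicate 2, adjusted p = 0.051 to 0.101). The glucose-inducible repressor gene Klf10 rose 1.39-fold, lost in 10 alternatives (adjusted p = 0.0508 to 0.156), among them those without either 1 mM array or 10 mM replicate 2. Mlxip, which encodes MondoA, was not called (-0.40 ± 0.18). The list's median change was 0.04.

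The Txnip promoter is printed because Txnip was the largest increase and its window holds the letters of the carbohydrate response element, the paired E-boxes bound by MondoA and ChREBP. The window is chr3:96557707-96558006 on the plus strand (GRCm38.p6, from RefSeq), 250 bases before to 50 bases after the annotated start, with the match in capitals at position -85 from the start:
Txnip: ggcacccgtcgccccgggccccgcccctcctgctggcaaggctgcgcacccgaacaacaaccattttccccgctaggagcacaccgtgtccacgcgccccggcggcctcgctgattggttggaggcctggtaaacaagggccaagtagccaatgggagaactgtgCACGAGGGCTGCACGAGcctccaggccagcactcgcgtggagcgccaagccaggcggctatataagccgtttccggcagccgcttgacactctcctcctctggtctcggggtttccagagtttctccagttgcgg
The search used CACGNG, 5 bases of any kind and CACGNG again, on both strands, and each end can overlap the Myc E-box. These letters stood in 0.0487% of all 32851 RefSeq promoter windows and in those of 10 of the 10345 tested genes that have a window. Txnip was the only one of the 10 called higher, 1 was called lower and 8 were not called. A match describes the letters and is neither a site nor a cause.

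Calls among transporters and the first steps of glucose use went in both directions. Of 9 genes of glucose and lactate transport 1 rose (11.1%), 2 fell (22.2%) and 6 were not called. Over all tested genes 13.2% were called higher and 12.1% lower. Hk2, the insulin-regulated hexokinase of muscle, read 9.06 and 8.88 at 1 mM and 8.18 and 8.17 at 10 mM. It fell 1.73-fold (-0.79 ± 0.13), while Hk1, the constitutive hexokinase, rose 1.67-fold (0.74 ± 0.14). The 1 mM arrays were therefore the higher ones for Hk2 and the lower ones for Hk1. Slc16a1 (MCT1, which carries lactate and pyruvate) fell 1.86-fold and Slc16a3 (MCT4, the lactate exporter of glycolytic cells) rose 1.97-fold. The Slc16a3 call was lost without either 1 mM array or 10 mM replicate 2 (adjusted p = 0.080 to 0.146). The basal glucose transporter gene Slc2a1 fell 1.51-fold, lost without 1 mM replicate 1, without 10 mM replicate 2 and with probe sets averaged (adjusted p = 0.0592 to 0.0729). The insulin-responsive transporter gene Slc2a4 was not called, with replicates that spread widely (3.08 and 3.81 against 3.89 and 3.04). Of 18 glycolysis genes 7 rose and 1, Hk2, fell, with a median of 0.32. The muscle mutase gene Pgam2 rose 2.67-fold, the muscle enolase gene Eno3 1.56-fold and the isomerase gene Tpi1 1.54-fold. Of the 7 rises, 2 (Hk1 and Pgam2) were kept in each alternative, and 2 to 4 remained without 1 control array. Eno3 and Tpi1 lost their calls in 3 to 4 alternatives each (adjusted p = 0.0534 to 0.0828), for 1 or more of them without either 1 mM array or either 10 mM array. Ldha, which makes lactate, was at 0.32 and not called.

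The side routes of glucose gave calls in both directions, beside 13.2% of all tested genes called higher and 12.1% called lower. In the pentose phosphate pathway, which makes NADPH, 3 of 7 genes fell, 0 rose and 4 were not called (median -0.48). Pgd read 10.6 and 10.7 at 1 mM and 9.23 and 9.28 at 10 mM and fell 2.61-fold. The transaldolase gene Taldo1 fell 2.04-fold and the epimerase gene Rpe 1.39-fold. Of 9 hexosamine and O-GlcNAc genes 1 rose, 3 fell and 5 were not called. Gnpnat1, which acetylates glucosamine phosphate, fell 3.31-fold, Gfpt2 2.25-fold and Uap1l1 1.88-fold, whereas the rate-limiting gene Gfpt1 (0.11) and the transferase gene Ogt (-0.02) were not called. Oga, whose enzyme removes O-GlcNAc from proteins, read 7.48 on both arrays at 1 mM and 8.48 and 8.58 at 10 mM and rose 2.07-fold. A dim second probe set of Oga changed by 0.27. Of 12 glycogen genes 2 rose, 2 fell and 8 were not called, with a median of 0.03. The cargo receptor gene Stbd1 fell 4.82-fold (8.50 and 8.42 against 6.13 and 6.24) and the branching enzyme gene Gbe1 1.81-fold. Muscle glycogen phosphorylase, Pygm, rose 1.85-fold and the brain form, Pygb, 1.40-fold. Gys1, which encodes the synthase, was not called (0.01). Pygm, Pygb, Taldo1, Rpe, Gfpt2 and Uap1l1 lost their calls in 1 to 9 alternatives each (adjusted p = 0.0508 to 0.175), for 1 or more of them without either 1 mM array, either 10 mM array or a knockdown array.

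Mitochondrial genes differed by group in how many were called, beside 25.3% of all tested genes. Of 66 oxidative phosphorylation genes 6 rose and 2 fell, with a median of 0.20, and 58 were not called. The rises with the smallest p, Ndufa3 (1.51-fold), Uqcrh (1.39-fold), Ndufs3 (1.39-fold) and Cox8a (1.32-fold), were small. None of the 6 rises were kept in all alternatives, and 1 remained without any 1 of the control arrays, whereas Cox6a2 (1.87-fold) and Uqcrq (1.97-fold) fell in each. Ndufa3, Uqcrh, Ndufs3 and Cox8a lost their calls in 2 to 12 alternatives each (adjusted p = 0.0513 to 0.137), for 1 or more of them without either 1 mM array, either 10 mM array or a knockdown array. Of 67 mitochondrial ribosome genes 1, Mrpl18 (1.69-fold), rose and 3 fell (median -0.16), namely Mrps28 (1.57-fold), Mrps2 (1.51-fold) and Mrpl10 (1.43-fold). A dim second probe set of Mrpl10 changed by -0.09, and the Mrpl10 call was lost with probe sets averaged (adjusted p = 0.267). Of these calls, those of Mrpl18, Mrps28, Mrps2 and Mrpl10 were lost in 2 to 6 alternatives each (adjusted p = 0.0504 to 0.267), for 1 or more of them without either 1 mM array or either 10 mM array.

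Of 13 genes of pyruvate entry 2 rose (15.4%) and 1 fell (7.69%), beside 13.2% and 12.1% of all tested genes. Of 18 TCA cycle genes 5 rose (27.8%), 2 fell (11.1%) and 11 were not called (median 0.26). Pcx, whose enzyme refills the TCA cycle from pyruvate, fell 2.32-fold, and Pck2, which draws from the cycle, fell 5.45-fold (9.0 and 9.06 against 6.64 and 6.52). Pdp1, which activates pyruvate dehydrogenase, rose 2.32-fold, and the opposing kinase gene Pdk4 rose 1.71-fold. The Pdk4 call was lost without either 1 mM array or 10 mM replicate 1 (adjusted p = 0.0758 to 0.129). The succinyltransferase gene Dlst rose 1.61-fold and the succinate dehydrogenase subunit gene Sdhd 1.58-fold. Ogdh rose 1.54-fold and the isocitrate dehydrogenase gene Idh2 by 0.59 on the log2 scale. Suclg2 fell 1.39-fold, though a dim second probe set changed by 0.02 and the call was lost with probe sets averaged (adjusted p = 0.206). The count of 5 rises in the cycle was 0 to 3 without 1 control array. Dlst, Sdhd, Ogdh, Idh2 and Suclg2 lost their calls in 2 to 7 alternatives each (adjusted p = 0.0504 to 0.206), for 1 or more of them without either 1 mM array or either 10 mM array.

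Among mitochondrial carriers 5 of 39 genes were higher (12.82%) and 7 lower (17.95%), beside 13.2% and 12.1% of all tested genes. The other 27 were not called, and the median was 0.15. Slc25a43 rose 2.88-fold, the peroxisomal carrier gene Slc25a17 1.75-fold, the aspartate and glutamate exchanger gene Slc25a12 1.53-fold and Slc25a35 1.45-fold. The mitochondrial iron importer gene Slc25a37 fell 2.71-fold, its paralog Slc25a28 1.75-fold, the glutamate carrier gene Slc25a22 2.87-fold and the pyrimidine nucleotide carrier gene Slc25a33 4.42-fold. Without 1 control array 3 to 6 were higher and 4 to 6 lower. Slc25a12 and Slc25a35 lost their calls in 2 to 6 alternatives each (adjusted p = 0.0538 to 0.127), for 1 or more of them without either 1 mM array or either 10 mM array.

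Calls among genes of fatty acid use were mostly rises. Of 28 such genes 8 rose and 3 fell, with a median of 0.35, and 5 rose without 1 mM replicate 2 or 10 mM replicate 2. Cpt1a, which admits long-chain fatty acids to mitochondria, read 6.81 and 6.88 at 1 mM and 8.38 and 8.35 at 10 mM, a 2.87-fold increase (1.52 ± 0.12). The fatty acid transporter gene Cd36 rose 2.79-fold, Angptl4 2.18-fold and Hadh 1.78-fold. Acot2, a mitochondrial acyl-CoA thioesterase, went the other way, from 11.9 and 12.1 to 8.46 and 7.99 (13.4-fold lower). Acox2, a peroxisomal oxidase, fell 14.1-fold, and the lipid droplet coat gene Plin2 1.31-fold. Acot2 has a near-identical neighbour, Acot1, whose transcript its probe set may also read. In cholesterol synthesis 4 of 19 genes rose (21.05%) and 5 fell (26.32%), beside 13.2% and 12.1% of all tested genes. Mvd, Lss, Insig1 and Sqle fell 2.38-fold, 2.02-fold, 1.84-fold and 1.49-fold. The rises were those of the regulator gene Srebf2 (1.64-fold), Stard4 (1.49-fold), Pmvk (1.55-fold) and Tm7sf2 (1.54-fold), and none of the 4 was kept in each alternative. Without 1 control array 0 to 2 genes rose and 3 to 4 fell. Of 13 genes of fatty acid synthesis the desaturase gene Scd1 rose 1.59-fold, the carboxylase gene Acaca fell 1.37-fold and 11 were not called, Fasn among them (0.05). Plin2, Sqle, Srebf2, Stard4, Pmvk, Tm7sf2, Scd1 and Acaca lost their calls in 3 to 13 alternatives each (adjusted p = 0.0509 to 0.213), for 1 or more of them without either 1 mM array, either 10 mM array or a knockdown array.

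Genes of the integrated stress response were lower at 10 mM. Of 18 tested regulators and effectors 13 fell and 0 rose, the median was -1.26 and all 18 changes were below 0. Atf4, whose product leads the response, read 9.69 and 9.01 at 1 mM and 7.73 and 8.11 at 10 mM and fell 2.70-fold. Trib3, a pseudokinase that inhibits AKT, read 8.55 and 8.77 at 1 mM and 4.54 and 4.11 at 10 mM, a 20.2-fold fall (-4.33 ± 0.19). Ddit3, which encodes the pro-apoptotic factor CHOP, read 10.1 on both arrays at 1 mM and 6.74 and 6.68 at 10 mM (10.4-fold lower). Both changes were larger in size than that of Atf4, a difference that was not tested. Atf3 fell 11.3-fold, the glutathione-cleaving enzyme gene Chac1 8.75-fold, Sesn2 7.95-fold and Ppp1r15a, which resets the response by recruiting a phosphatase, 7.88-fold.

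Amino acid supply fell with them. Of 16 genes of serine, one-carbon, proline and asparagine synthesis 13 fell and 0 rose (median -1.51). Shmt2 read 10.3 on both arrays at 1 mM and 7.33 and 7.32 at 10 mM. The asparagine synthetase gene Asns went from 9.92 and 10.1 to 7.11 and 6.95, and each of the pair fell 7.83-fold. Aldh1l2, which oxidises formyl folate in mitochondria, fell 8.81-fold, Mthfd2 6.62-fold and Phgdh, the entry to serine synthesis, 3.92-fold. Among 19 amino acid transporters 9 fell and 3 rose. Slc7a11, the cystine importer, read 8.84 and 8.76 at 1 mM and 2.57 and 2.95 at 10 mM, a 65.8-fold fall (-6.04 ± 0.16, adjusted p = 8.7e-06). A second, dim probe set of Slc7a11 changed by -0.08. Its partner chain gene Slc3a2 fell 5.55-fold, the arginine and lysine carrier gene Slc7a1 6.26-fold, the leucine exchanger gene Slc7a5 5.0-fold and the neutral amino acid carrier gene Slc1a4 4.93-fold. Slc1a3, a glutamate carrier, and Slc6a6, which imports taurine, rose 2.81-fold and 1.80-fold. Slc43a2 rose 1.53-fold. Bcat1, which starts leucine breakdown in the cytosol, read 7.32 and 7.12 against 3.55 and 3.49 (-3.70 ± 0.14), while its mitochondrial counterpart Bcat2 fell 1.76-fold and the other 16 of the 18 genes of branched-chain amino acid breakdown were not called. The calls of Slc43a2 and Bcat2 were lost in 2 to 3 alternatives each (adjusted p = 0.0693 to 0.112), for 1 or more of them without either 1 mM array or 10 mM replicate 2.

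Cytosolic aminoacyl-tRNA synthetases, which load tRNAs, fell in 16 of 18 genes with a median of -1.50. Sars fell 4.22-fold, Iars 3.62-fold, Eprs 3.39-fold and Nars 3.32-fold. Among their mitochondrial counterparts 3 of 16 fell, 1 rose, and the median was -0.31. Ears2 fell 2.28-fold and was the only one of those 4 whose call was kept in each alternative. Yars2 fell 1.54-fold and Tars2 1.47-fold, and Fars2 rose 1.48-fold. Yars2, Tars2 and Fars2 lost their calls in 4 to 9 alternatives each (adjusted p = 0.0524 to 0.197), for 1 or more of them without either 1 mM array, either 10 mM array or a knockdown array.

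The promoters of Slc7a11 and Trib3 are printed as the members of the transporter and stress regulator lists with the smallest p whose windows hold the ATF4-C/EBP composite letters, TGATGNAAN on either strand. They lie at chr3:50443564-50443863 and chr2:152344011-152344310 (GRCm38.p6, RefSeq, both minus strand), with matches in capitals. Slc7a11 has matches at -66 and -48 from the start and Trib3 has 1 at 13:
Slc7a11: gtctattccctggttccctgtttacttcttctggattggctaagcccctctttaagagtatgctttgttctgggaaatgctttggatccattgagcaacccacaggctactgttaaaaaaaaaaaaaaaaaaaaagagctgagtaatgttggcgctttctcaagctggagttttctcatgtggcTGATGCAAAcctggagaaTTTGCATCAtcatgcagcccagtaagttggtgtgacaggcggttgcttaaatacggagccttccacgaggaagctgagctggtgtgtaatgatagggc
Trib3: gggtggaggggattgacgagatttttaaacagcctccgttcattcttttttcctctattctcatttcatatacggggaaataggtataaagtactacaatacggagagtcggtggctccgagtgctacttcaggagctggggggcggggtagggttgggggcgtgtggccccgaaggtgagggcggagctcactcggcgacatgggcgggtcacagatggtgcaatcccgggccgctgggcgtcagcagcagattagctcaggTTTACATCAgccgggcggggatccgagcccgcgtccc
The letters stood in 3.95% of all windows, and in 3.91% of the windows of genes called lower, 2.28% of those not called and 1.65% of those called higher. In the cytosolic synthetase list 4 of 11 windows (36.4%) held them (Iars, Yars, Gars and Tars, named by this search alone), and in the stress regulator list 5 of 20 (25%). The share was 19% of 21 windows for transporters, 13.3% of 15 for serine and asparagine synthesis and 6.25% of 16 for cysteine handling. The transporter windows included 2 of a gene that was not called (1.32). Both windows printed come from genes among the 4 largest decreases.

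Cysteine handling and antioxidant genes fell in part. Cth, which makes cysteine from cystathionine, read 8.42 and 8.44 at 1 mM and 3.79 and 3.89 at 10 mM (24.1-fold lower, adjusted p = 8.7e-06). Glutamate-cysteine ligase, the first step of glutathione synthesis, fell in both subunits, Gclm 4.16-fold and Gclc 2.97-fold. Of the 16 genes of cysteine and glutathione handling 5 fell and 4 rose. The rises were those of the glutaredoxin gene Glrx (2.06-fold) and of 3 glutathione peroxidase genes, Gpx3 (1.77-fold), Gpx8 (1.71-fold) and Gpx1 (1.53-fold), of which 0 to 2 remained without 1 control array. Glrx, Gpx3, Gpx8 and Gpx1 lost their calls in 4 to 5 alternatives each (adjusted p = 0.0549 to 0.135), for 1 or more of them without either 1 mM array or either 10 mM array. Of 17 NRF2 and antioxidant genes 8 fell and 0 rose, with a median of -0.46. The drug and nucleotide exporter gene Abcc4 fell 6.94-fold, the haem oxygenase gene Hmox1 3.81-fold, Srxn1 3.80-fold, the thioredoxin reductase gene Txnrd1 2.83-fold and Nqo1 2.07-fold. Nfe2l2, which encodes NRF2, was not called (-0.36 ± 0.14).

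ER chaperones and enzymes of protein folding had the highest share of genes called lower among the 67 lists described. Of 24 tested genes 23 were lower at 10 mM and 1 was not called, and the median was -1.53. Hspa5, the chaperone BiP, read 10.5 on both arrays at 1 mM and 7.71 and 7.72 at 10 mM (6.84-fold lower, -2.78 ± 0.15). Sdf2l1, a partner of BiP, read 9.44 and 9.92 against 5.47 and 5.56, a change of -4.17 ± 0.20. In both genes the gap between groups was many times the gap between replicates. Hyou1 fell 7.06-fold and Creld2 5.28-fold, while the regulators Xbp1 and Atf6 fell 2.41-fold and 1.99-fold.

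Calls among the steps of the secretory route around the chaperones were mostly falls. In ER-associated degradation, which removes misfolded proteins, 8 of 16 genes fell (median -0.72), with Herpud1 and the ubiquitin ligase gene Syvn1 each 3.82-fold lower and Sel1l 3.39-fold lower. Edem1 fell 3.12-fold, though a dim second probe set changed by -0.16. In N-glycan assembly 14 of 29 fell and 1 rose (median -0.55). Magt1, Alg12, Alg2 and Rpn1 fell between 2.38-fold and 2.83-fold, and the catalytic subunit gene Stt3a 1.61-fold. Dpm1, which makes dolichol phosphate mannose, rose 1.42-fold. In the translocon and signal peptide list 10 of 22 fell (median -0.48, and 6 without either 10 mM array), among them Spcs2 (2.21-fold), Spcs3 (1.89-fold), Srprb (2.06-fold) and Sec61a1 (1.88-fold). Among the vesicle coats further along 5 of 25 genes were lower, beside 12.1% of all tested genes, and 1 was higher (median -0.09). Sec23b (1.78-fold lower) was the member whose call held throughout, and 1 to 2 falls remained without 1 control array. Tmed2 fell 1.60-fold, Lman1 1.45-fold and Sec24d 1.44-fold, and Copb2 rose 1.33-fold. Stt3a, Dpm1, Tmed2, Lman1, Sec24d and Copb2 lost their calls in 2 to 13 alternatives each (adjusted p = 0.0501 to 0.193), for 1 or more of them without either 1 mM array, either 10 mM array or a knockdown array.

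The windows of Hspa5 (chr2:34771840-34772139, plus strand) and Creld2 (chr15:88819396-88819695, plus strand; both GRCm38.p6, RefSeq) are printed as the chaperone genes with the smallest p that hold the ER stress element. The letters searched were CCAAT, 9 bases of any kind and CCACG, on both strands, which include the CCAAT box. The matches, in capitals, begin at -65 and, on the opposite strand, at -126:
Hspa5: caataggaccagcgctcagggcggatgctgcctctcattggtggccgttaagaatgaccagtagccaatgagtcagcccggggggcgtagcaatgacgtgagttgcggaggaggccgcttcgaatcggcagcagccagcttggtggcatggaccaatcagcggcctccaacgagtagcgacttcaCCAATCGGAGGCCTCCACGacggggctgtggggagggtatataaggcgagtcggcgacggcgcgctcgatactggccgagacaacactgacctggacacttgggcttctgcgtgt
Creld2: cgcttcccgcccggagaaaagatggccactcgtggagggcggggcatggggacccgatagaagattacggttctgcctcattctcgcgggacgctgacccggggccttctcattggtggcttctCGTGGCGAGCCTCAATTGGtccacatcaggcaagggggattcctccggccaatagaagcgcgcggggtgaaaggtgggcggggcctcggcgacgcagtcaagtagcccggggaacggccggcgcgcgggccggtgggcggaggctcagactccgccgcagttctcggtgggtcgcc
Of all RefSeq windows 0.119% held these letters. Among tested genes with a window, they stood in 13 of 1286 called lower, in 3 of 7715 not called and in 0 of 1344 called higher. The 13, named by this search alone, included 8 chaperone genes (Hspa5, Creld2, Dnajc3, Pdia6, Hsp90b1, Calr, Ero1b and Canx), the ligase gene Syvn1 and the mannosyltransferase gene Alg12. The Canx call was lost without 1 mM replicate 2 (adjusted p = 0.0573). The unfolded protein response element TGACGTGG stood in 1.58% of the windows of genes called lower, 0.81% of those not called and 0.739% of those called higher.

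**Figure D3:**
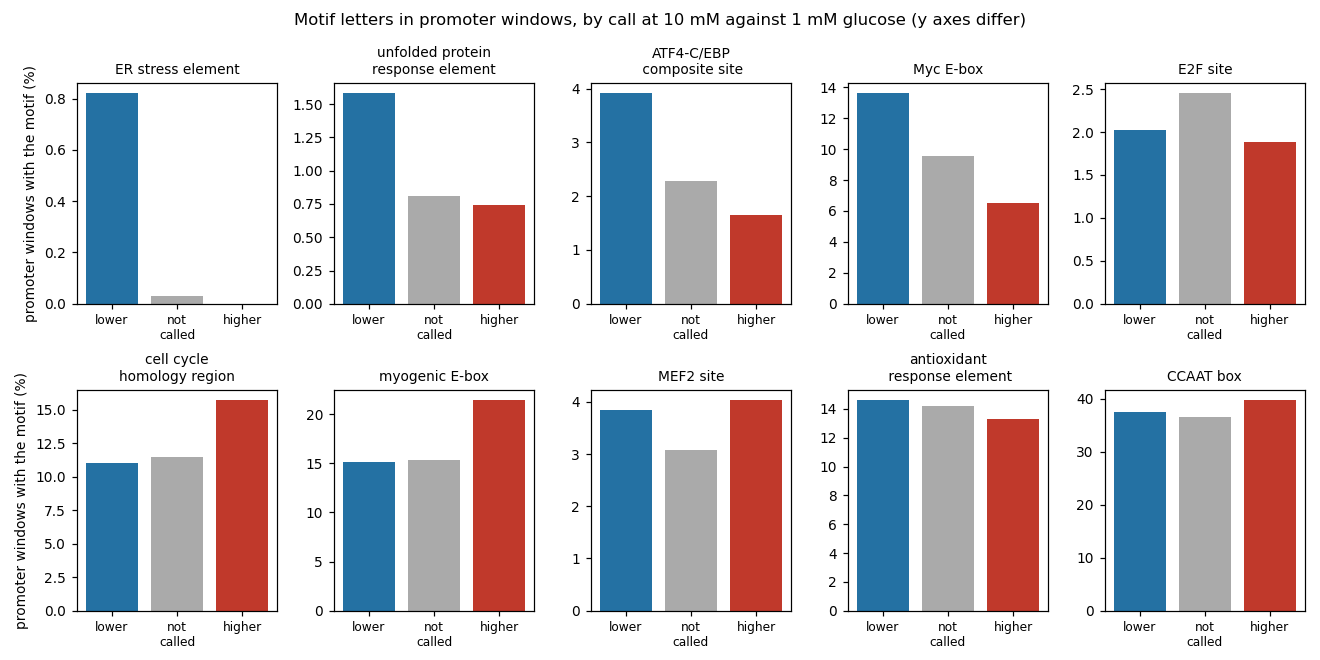
Percentage of 300-base promoter windows (y axis) that hold the letters of each of 10 motifs, for genes called lower at 10 mM (blue, 1585 windows), not called (grey, 9751) and called higher (red, 1760); the y axes differ between panels. The ER stress element goes from 0.82% in genes called lower to 0.0308% in those not called, and the cell cycle homology region and the myogenic E-box are most frequent in genes called higher.

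Genes for making ribosomes fell almost throughout. Of 33 ribosome biogenesis genes 30 fell, 0 rose and the median was -1.08. Heatr1 and Rrp9 fell 3.17-fold and 3.01-fold, Nop56, a box C/D snoRNP core protein, 2.86-fold, and Nop2, an rRNA methyltransferase, 2.85-fold. Nucleolin (Ncl) read 10.6 and 10.1 at 1 mM and 9.39 and 8.94 at 10 mM and was 2.22-fold lower, lost without 10 mM replicate 2 (adjusted p = 0.0553). Host transcripts of snoRNAs fell in 7 of 15 genes, with Snhg15 3.18-fold, Snhg6 3.02-fold, Snhg12 2.64-fold and Snhg17 2.17-fold lower, and Snhg14 rose 1.96-fold. Of 32 translation factors 11 fell (5 to 7 without 1 control array) and 0 rose (median -0.36), including the translation repressor gene Eif4ebp1 (2.42-fold) and Eif2b3, part of the exchange factor on which the stress response acts (2.10-fold), Eif3c (2.04-fold) and Eif1a (2.04-fold).

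Myc fell and antagonists of it rose. Myc read 9.04 on both arrays at 1 mM and 5.89 and 6.06 at 10 mM, an 8.39-fold fall (-3.07 ± 0.13, adjusted p = 4.53e-05). Mxi1, Mxd4 and Mxd1, which compete with Myc for its partner Max, rose 2.08-fold, 2.01-fold and 1.52-fold. Max itself fell 1.46-fold. Of the 8 genes in this network 3 rose, 2 fell and 3 were not called (median 0.52). Alternatives lost the calls of Mxd1 and Max, 5 to 8 for each gene (adjusted p = 0.0501 to 0.149), for 1 or more of them without either 1 mM array, either 10 mM array or a knockdown array. The Myc E-box letters CACGTG stood in 13.6% of the windows of genes called lower, 9.58% of those not called and 6.53% of those called higher, and in 20.6% of the 34 windows of the ribosome biogenesis list.

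Of 39 proteasome genes 1, Psmc3 (1.40-fold), rose and 2, Psma5 (1.88-fold) and Psme3 (1.48-fold), fell, none of them in each alternative. These were 2.56% and 5.13% of the list, beside 13.2% and 12.1% of all tested genes. A dim second probe set of Psma5 changed by -0.15. The Psma5 call was lost with the probe set chosen by the control arrays (adjusted p = 0.682). Of 32 genes of lysosomes and autophagy 2 rose (6.25%) and 7 fell (21.9%), with a median of -0.13. The cholesterol exporter of lysosomes, Npc1, fell 2.60-fold (a dim second probe set changed by -0.22), the calcium channel gene Mcoln1 2.01-fold, Gabarapl1 1.98-fold and the lysosomal glucosidase gene Gaa 1.83-fold. The autophagy genes Map1lc3a and Bnip3 rose 1.45-fold and 1.53-fold. Tfeb, which regulates such genes, was dim and not called (0.31). Psmc3, Psma5, Psme3, Map1lc3a and Bnip3 lost their calls in 3 to 8 alternatives each (adjusted p = 0.0502 to 0.682), for 1 or more of them without either 1 mM array, either 10 mM array or a knockdown array.

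Genes of mitosis had the highest share of genes called higher among the 67 lists. Of 49 tested genes 47 were higher at 10 mM, 0 were lower, and the median change was 1.96. With the stricter filter, which leaves fewer of them in the test, 31 were called. Top2a, which untangles chromosomes, read 4.95 and 4.99 at 1 mM and 8.31 and 8.14 at 10 mM (9.53-fold higher, 3.25 ± 0.16). Mki67, the Ki-67 proliferation marker, read 5.77 and 5.71 against 8.38 and 8.14 and rose 5.73-fold. Cdk1, the kinase that starts mitosis, read 4.62 and 4.06 against 6.57 and 6.23 and rose 4.17-fold. All arrays at 10 mM were above all arrays at 1 mM in the 3 genes. Cenpf rose 10.1-fold and the kinetochore gene Ndc80 6.70-fold. Of 32 kinesins 13 rose and 3 fell, and the rises held mitotic motors such as Kif20a (7.59-fold), Kif11 (5.58-fold), Kif20b (5.04-fold) and Kif15 (4.65-fold). The neuronal transport motor gene Kif21b fell 2.01-fold, Kif3a, a motor of cilia, 1.68-fold and Kif2a 1.41-fold, and 1 to 2 of these falls remained without 1 control array. Kif3a and Kif2a lost their calls in 1 to 8 alternatives each (adjusted p = 0.0513 to 0.147), for 1 or more of them without either 1 mM array, either 10 mM array or a knockdown array.

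Of 41 genes of DNA replication and nucleotide synthesis 14 rose and 2 fell, with a median of 0.38. Both subunits of ribonucleotide reductase rose, Rrm2 4.23-fold and Rrm1 2.42-fold, as did thymidine kinase, Tk1 (3.32-fold), and the helicase subunit gene Gins2 (1.97-fold). Rrm2 read 5.27 and 5.02 at 1 mM and 7.18 and 7.27 at 10 mM. The dUTP hydrolase gene Dut and the origin licensing gene Cdt1 each fell 1.93-fold, and the clamp gene Pcna was not called (-0.42 ± 0.15). Among 25 cyclins, CDK inhibitors and E2F genes 10 rose, 2 fell and 13 were not called. Ccnd3 rose 2.71-fold (6.86 and 6.92 against 8.16 and 8.50) and Ccnd2 fell 2.95-fold (9.34 and 9.25 against 7.57 and 7.90), while Ccnd1 was not called. E2f2 and E2f8 rose 4.78-fold and 4.53-fold, and E2f6 fell 1.85-fold. The CDK inhibitor gene Cdkn2d rose 3.28-fold, and Cdkn1a, which holds myotubes out of the cycle, was bright on every array (11.1 to 11.7) and not called. Of 11 histone genes 4 rose and 1 fell, although they are near-identical copies whose probe sets may read each other. H2ac10 rose 4.32-fold, H2bc3 2.80-fold, H2ac20 1.74-fold and H2bc14 1.72-fold, and H2bc18 fell 1.51-fold. Without 1 control array 2 to 5 rose. Cdt1, E2f6, H2bc3, H2bc14 and H2bc18 lost their calls in 1 to 10 alternatives each (adjusted p = 0.0524 to 0.185), for 1 or more of them without either 1 mM array, either 10 mM array or a knockdown array.

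The mitotic genes rose in a culture that can hold unfused cells. The 6 markers of undifferentiated myoblasts gave 1 call higher and 2 lower: Cd34 rose 2.37-fold, Hmga2 fell 3.69-fold (9.13 and 9.09 against 7.13 and 7.32) and Myf5 fell 1.75-fold. The Myf5 call was lost in 11 alternatives (adjusted p = 0.0506 to 0.219), among them those without 1 mM replicate 1 or either 10 mM array. Their summed level, the log2 of the sum of unlogged values, was 10.1 on both arrays at 1 mM and 9.53 to 9.76 at 10 mM. Bright members such as Hmga2 weigh most in this sum. The median change of the 6 markers was 0.11, with 4 above 0 and 2 below. The part of these cells in the mitotic rise was not tested. In bulk RNA more cells of a type and more RNA per cell cannot be told apart.

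The Top2a window (chr11:99024140-99024439, minus strand, GRCm38.p6, RefSeq) is printed as the mitotic gene with the smallest p that holds the cell cycle homology region, TTTGAA on either strand. Matches are in capitals, at -179 and -23:
Top2a: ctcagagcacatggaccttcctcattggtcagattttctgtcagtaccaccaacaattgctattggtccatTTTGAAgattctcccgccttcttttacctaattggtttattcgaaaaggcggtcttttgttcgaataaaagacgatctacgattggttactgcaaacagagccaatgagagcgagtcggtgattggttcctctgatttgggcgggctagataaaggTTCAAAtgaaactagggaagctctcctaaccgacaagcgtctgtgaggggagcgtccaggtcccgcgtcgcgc
In the mitosis list 28 of 41 genes with a window, or 67.4% of 46 windows, held these letters, against 17.9% of all RefSeq windows, 15.7% of those of genes called higher and 11% of those called lower. The CCAAT box stood in 78.3% of the list's windows and in 37.4% of all. The E2F letters TTTNGCGC stood in 25.6% of the 39 windows of the replication list, in 1.38% of all windows and in 2.32% of those of tested genes. They were not more frequent in genes called higher (1.88%) than in those not called (2.45%) or called lower (2.02%).

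Calls among sarcomere genes were rises but for 1. Of 48 sarcomere genes 27 rose, 1 fell and 20 were not called, and the median was 0.65. The count of rises was 17 without 1 mM replicate 2 and 13 without 10 mM replicate 2. The Z-disc gene Actn2 read 5.0 and 5.53 at 1 mM and 7.32 and 6.99 at 10 mM and rose 3.72-fold. Klhl41, which stabilises thin filaments, rose 3.32-fold, Ldb3 2.55-fold and Lmod2 2.08-fold. The 1 fall was that of Xirp2 (2.24-fold). The Xirp2 call was lost without 1 mM replicate 2 or 10 mM replicate 1 (adjusted p = 0.0704 to 0.0751). Embryonic myosin, Myh3, rose 1.75-fold, lost without 10 mM replicate 2 (adjusted p = 0.050). The CAGCTG E-box stood in 35.6% of the list's 45 windows and in 16.3% of all, and the MEF2 letters (CTA, 4 bases of any kind, TAG) in 13.3% and 3.69%.

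The regulators of the myogenic programme moved unequally. Myod1, the determination factor, read 5.24 and 5.89 at 1 mM and 7.78 and 7.74 at 10 mM, a 4.58-fold increase (2.19 ± 0.22). Myog, the differentiation factor, was bright in both groups (9.60 and 9.87 against 10.0 and 10.2) and not called. Six4 rose 2.35-fold and Mef2c 1.89-fold, the second lost without 1 mM replicate 1 or 10 mM replicate 2 (adjusted p = 0.0585 and 0.056). Id3, which blocks the E-protein partners of Myod1, rose 1.75-fold. The Id3 call was lost without 1 mM replicate 2 or 10 mM replicate 1 (adjusted p = 0.0663 to 0.0755). Of 17 such factors 5 rose and 1 fell, with 3 to 4 rises without 1 control array. Among 16 fusion and repair genes 9 rose (5 without 1 mM replicate 1) and 1 fell (median 0.63). The fusion micropeptide gene Mymx read 3.96 and 3.92 against 5.66 and 6.10 and rose 3.84-fold. Its partner Mymk rose 1.65-fold, a call lost without 1 mM replicate 1 or 10 mM replicate 2. The adhesion gene Jam2 rose 4.20-fold and the annexin genes Anxa6 and Anxa1 2.09-fold and 2.01-fold, and Kirrel fell 1.59-fold. The Kirrel call was lost without 1 mM replicate 2 or 10 mM replicate 2 (adjusted p = 0.0715 to 0.0765).

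Of 20 genes of excitation-contraction coupling 6 rose (30%, beside 13.2% of all tested genes), 1 fell and 13 were not called, with a median of 0.37. Mrln, a micropeptide that inhibits the calcium pump of the sarcoplasmic reticulum, read 2.79 and 2.85 at 1 mM and 5.96 and 6.07 at 10 mM (9.16-fold higher). Atp2a2, the slow-type pump, fell 2.03-fold, and the fast-type Atp2a1 was not called (0.58). Stac3, which couples the voltage sensor to release, rose 4.78-fold, Srl 2.37-fold and Trdn 2.32-fold, while the release channel gene Ryr1 was not called (0.06). Of 5 ion channel and pump genes of the muscle membrane 1, Atp1b1 (1.56-fold), rose, and the chloride channel gene Clcn1 was not called (-0.07). The Atp1b1 call was lost without 1 mM replicate 2 or 10 mM replicate 2 (adjusted p = 0.0788 to 0.0870).

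Of 11 energy buffer genes 6 rose and 2 fell. Muscle creatine kinase, Ckm, rose 2.32-fold, the brain form Ckb 2.15-fold and Gatm, which starts creatine synthesis, 2.53-fold, myoglobin, Mb, 2.40-fold and the adenylate kinase gene Ak1 1.96-fold, whereas the creatine importer gene Slc6a8 fell 1.95-fold and Ampd3 2.12-fold. Of 10 neuromuscular junction genes 2 rose (20%), 1 fell (10%) and 7 were not called (median 0.05), beside 13.2% and 12.1% of all tested genes. Lrp4 rose 2.19-fold and Rapsn 1.68-fold, while Musk, the receptor kinase that Lrp4 activates, fell 1.59-fold. Of 12 dystrophin complex genes 3 rose, Sntb1 (2.17-fold), Sgca (1.81-fold) and Sgce (1.49-fold), 1, Sgcd, fell 1.88-fold, and dystrophin itself, Dmd, was not called (0.15). Of 6 small heat shock protein genes Hspb3 rose 3.72-fold and 5 were not called. The Musk call was lost without 10 mM replicate 1 (adjusted p = 0.0534). The calls of Mb and Sgce were lost in 1 to 11 alternatives each (adjusted p = 0.0526 to 0.184), for 1 or more of them without either 1 mM array, either 10 mM array or a knockdown array. Of the 10 myotube markers 6 rose (4 without 1 mM replicate 1 and 3 without 10 mM replicate 2) and 0 fell. Their summed level ran from 12.9 to 13.1 at 1 mM and from 13.5 to 13.6 at 10 mM, and the part of a larger share of myotubes in these changes was not tested.

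The lists of growth signalling are given beside 13.2% of all tested genes called higher and 12.1% called lower. Of 13 IGF and insulin signalling genes 2 rose (15.4%) and 1 fell (7.69%). Among 18 AKT and mTOR genes 4 rose (22.2%) and 1 fell (5.56%). Igf1, the main growth factor of muscle, read 3.41 and 3.30 at 1 mM and 6.60 and 6.73 at 10 mM, a 9.89-fold increase (3.31 ± 0.20). Igfbp5, which binds it, rose 2.62-fold and Igfbp3 fell 1.90-fold, and the insulin receptor substrate gene Irs2 was not called (-0.44). The sestrins, which restrain mTORC1, split: Sesn2 read 8.44 and 8.34 against 5.12 and 5.67, while Sesn1 and Sesn3 rose 2.82-fold and 2.19-fold. Deptor, an mTOR inhibitor, rose 1.73-fold, lost without 1 mM replicate 1 or 10 mM replicate 2 (adjusted p = 0.0756 and 0.0764), and its second probe set changed by 1.06. Ddit4l, another mTORC1 inhibitor, rose 1.60-fold. Of 9 AMPK genes 3 rose, the regulatory subunits Prkag2 (2.56-fold), Prkag3 (2.41-fold) and Prkag1 (1.46-fold), and the catalytic Prkaa2 was not called. Igfbp3, Ddit4l and Prkag1 lost their calls in 2 to 8 alternatives each (adjusted p = 0.0612 to 0.177), for 1 or more of them without either 1 mM array, either 10 mM array or a knockdown array. Among FoxO and atrophy genes 0 of 9 rose and Klf15 fell 4.62-fold to dim signal, with Fbxo32 (0.40), Trim63 (0.20) and Foxo1 (0.22) not called.

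In the myostatin and TGF-beta family 10 of 18 genes rose and 0 fell (median 0.60). The myostatin antagonist gene Fst read 5.21 and 5.03 at 1 mM and 7.25 and 7.23 at 10 mM and rose 4.35-fold. The activin subunit gene Inhbb rose 3.17-fold, Tgfb3 2.63-fold and Gdf11 2.26-fold, so that these ligand genes and Fst were higher in the same arrays. Of 10 myokines 3 rose and 4 fell. Il15 rose 3.48-fold and Apln 2.53-fold. Ostn, the hormone musclin, read 4.13 and 5.19 against 1.35 and 1.51 and fell 9.37-fold, Nampt fell 2.00-fold, Bdnf 1.92-fold and Metrnl 1.79-fold. Fgf21, a stress-induced hormone, was not called (-0.45 ± 0.27). Without 1 control array 2 to 3 myokine genes fell. Apln, Bdnf and Metrnl lost their calls in 1 to 8 alternatives each (adjusted p = 0.0519 to 0.193), for 1 or more of them without either 1 mM array, either 10 mM array or a knockdown array.

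Matrix genes rose, and so did markers of fibroblasts. Of 16 matricellular and matrix proteins 12 rose and 0 fell, with a median of 1.12. Thbs1 read 9.52 and 9.54 at 1 mM and 11.2 on both arrays at 10 mM (3.17-fold higher), Ccn1 rose 3.03-fold, Tnc 2.63-fold and the crosslinking enzyme gene Loxl1 2.62-fold. Fibronectin, Fn1, read 12.9 on every array and was not called. Of 31 collagens 8 rose (5 without 1 mM replicate 1, and 5 with only the control arrays or no filter) and 1 fell, led by Col8a1 (3.57-fold), Col12a1 (2.82-fold), Col6a1 (2.41-fold) and Col6a2 (2.09-fold), and the fall was that of Col18a1 (1.57-fold). The Col18a1 call was lost in 6 alternatives (adjusted p = 0.0503 to 0.180), among them those without either 1 mM array or either 10 mM array. Of 28 matrix proteases and inhibitors 9 rose and 2 fell. Adamts16 read 4.23 and 4.45 against 7.97 and 7.52, Mmp16 rose 4.10-fold, Adamts7 2.42-fold and Mmp14 2.18-fold, and Mmp11 and Mmp28 fell 2.86-fold and 1.97-fold. All 5 tested fibroblast markers rose, with Dpt 5.0-fold, Pdgfra 3.08-fold, Col1a1 2.15-fold and Dcn 1.86-fold higher, and the sixth, Thy1, lay under the filter. Their summed level was 11.3 on both arrays at 1 mM and 12.2 to 12.4 at 10 mM. Several of them are matrix genes themselves, and the part of fibroblast-like cells in the matrix changes was not tested. Contractile genes of smooth muscle, which myofibroblasts share, rose in 5 of 11 (Myl9 2.30-fold, Acta2 2.29-fold, Vcl 1.88-fold and Smtn 1.60-fold), and their regulator Srf was not called (0.34). The Smtn call was lost with the mean of its probe sets (adjusted p = 0.130).

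The chemokine gene Cxcl12 and both of its receptors rose. The receptor gene Cxcr4 read 5.82 and 5.47 at 1 mM and 8.52 and 8.42 at 10 mM (7.07-fold higher), its scavenging relative Ackr3 rose 4.47-fold and the shared ligand gene Cxcl12 2.03-fold. Cxcl13 rose 3.95-fold. Of 30 genes in the list 6 rose and 4 fell, and none of the 4 falls was kept in each alternative (1 to 2 without 1 control array). They were Cxcl5 (2.66-fold), Ccl7 (2.30-fold), Ccl2 (1.88-fold) and Ccl6 (1.44-fold). Cxcl5, Ccl7, Ccl2 and Ccl6 lost their calls in 2 to 12 alternatives each (adjusted p = 0.0522 to 0.172), for 1 or more of them without either 1 mM array, either 10 mM array or a knockdown array.

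Of 17 interferon response genes 6 fell (3 without either 1 mM array) and 1 rose (median -0.55). Usp18 fell 2.88-fold, Ifit1 2.66-fold, Oasl2 2.07-fold and Irf9 1.79-fold while Irf1 rose 1.85-fold. Of 15 Notch pathway genes 7 rose (2 to 4 without 1 control array) and 2 fell. The ligand gene Jag1 read 8.52 and 8.38 against 6.03 and 5.81 (5.78-fold lower) and Rbpj, the nuclear effector, fell 2.16-fold, whereas Jag2 and Notch2 rose 1.77-fold and 1.88-fold and the target genes Heyl and Hes1 3.70-fold and 1.44-fold. Of 29 Wnt genes 7 rose (24.1%) and 3 fell (10.3%), beside 13.2% and 12.1% of all tested genes. The rises were led by the inhibitor genes Dkk2 (3.32-fold) and Dkk3 (2.42-fold) and the receptor genes Fzd2 (2.85-fold) and Fzd1 (1.76-fold). The 3 falls, Fzd5 (1.63-fold), Wnt5a (1.53-fold) and Fzd4 (1.43-fold), numbered 0 to 1 without 1 control array. Of 12 angiogenic and hypoxia factors 2 rose, Vegfd (2.50-fold) and Egln1 (1.85-fold), and 2 fell, Vegfa (2.01-fold) and Pgf (2.77-fold). Each direction held 16.7% of that list. Of these calls, those of Ifit1, Heyl, Hes1, Fzd5, Wnt5a, Fzd4 and Pgf were lost in 2 to 12 alternatives each (adjusted p = 0.0514 to 0.196), for 1 or more of them without either 1 mM array, either 10 mM array or a knockdown array.

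Carbonic anhydrases, which hydrate carbon dioxide, had the widest range of changes among the 67 lists, from -5.34 to 2.74. The cytosolic Car2 read 2.82 and 3.27 at 1 mM and 5.67 and 5.89 at 10 mM and rose 6.67-fold. Muscle Car3 rose 4.11-fold, Car13 2.22-fold and mitochondrial Car5b 1.81-fold, against the 40.5-fold fall of Car6. Of 13 genes 4 rose and 5 fell, with falls also of Car8 (1.70-fold), Car7 (1.57-fold) and Car15 (1.39-fold), and 1 to 2 falls remained without 1 control array. Car8, Car7 and Car15 lost their calls in 3 to 9 alternatives each (adjusted p = 0.0510 to 0.179), for 1 or more of them without either 1 mM array, either 10 mM array or a knockdown array. Immediate early genes gave 5 rises (3 without either 1 mM array or 10 mM replicate 2) and 1 fall among 12, with Egr3 2.12-fold, Jun 1.80-fold, Jund 1.78-fold and Fosl2 1.60-fold higher, Ier3 1.77-fold lower and Fos not called (0.06). Of 10 imprinted growth genes 2 rose, Peg3 (2.82-fold) and Sgce, given with the dystrophin complex. Of 17 clock genes 3 rose (17.65%) and 5 fell (29.41%), beside 13.2% and 12.1% of all tested genes. Ciart fell 3.73-fold, Nfil3 2.40-fold, Cry2 1.90-fold and Nr1d2 1.57-fold, while the core activator gene Arntl was not called. Per3 rose 2.52-fold, Bhlhe41 2.08-fold and Tef 1.91-fold, though a second, dimmer probe set of Tef changed by -0.44. Without 1 control array 1 to 3 clock genes rose and 2 to 3 fell. Egr3, Nfil3, Nr1d2, Per3, Tef and Sgce lost their calls in 2 to 11 alternatives each (adjusted p = 0.0522 to 0.311), for 1 or more of them without either 1 mM array, either 10 mM array or a knockdown array.

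Of 22 BAF complex genes, the group to which Baf60c belongs, 2 rose (9.1%) and 1 fell (4.5%), with a median of 0.01. Over all tested genes 13.2% were called higher and 12.1% lower. The ATPase gene Smarca2 rose 1.78-fold and Pbrm1 1.38-fold. Smarca2 and Pbrm1 lost their calls in 3 to 8 alternatives each (adjusted p = 0.0516 to 0.121), for 1 or more of them without either 1 mM array, either 10 mM array or a knockdown array. Phf10 fell 2.51-fold, and a second probe set changed by -1.33. The Baf60c paralogs Smarcd1 (0.25) and Smarcd2 (-0.20) were not called.

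**Figure D4:**
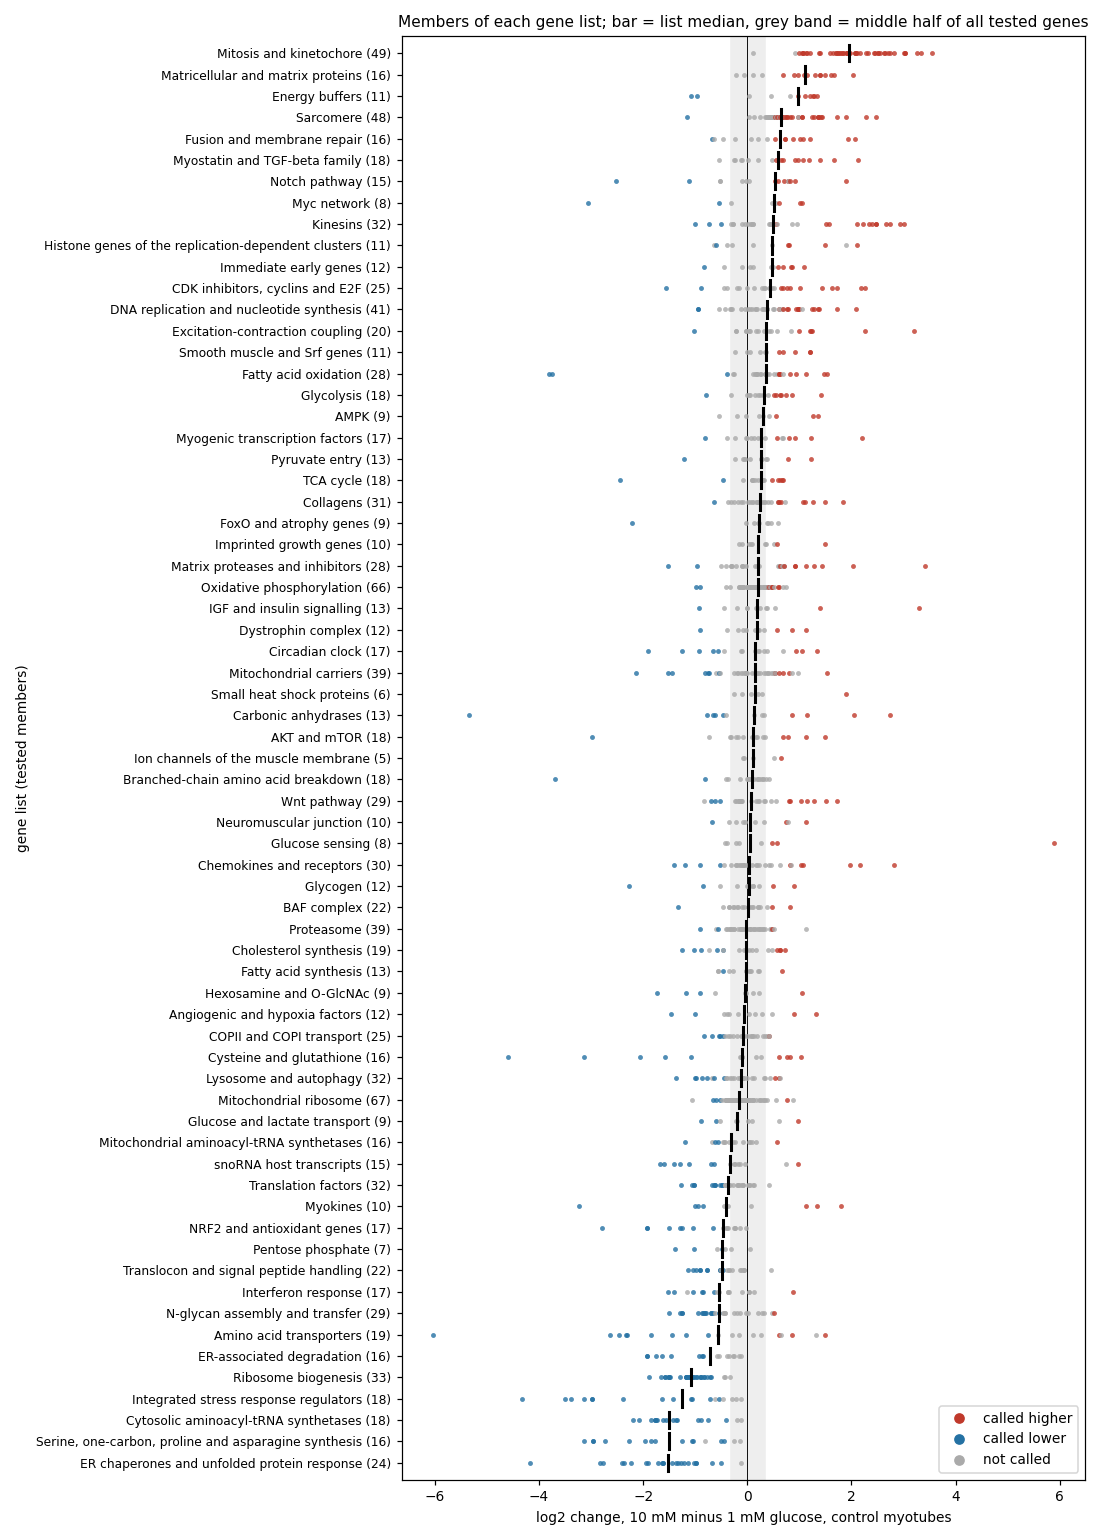
Log2 change (x axis) of each tested member of 67 gene lists (rows, ordered by median; number of tested members in parentheses). Red points were called higher at 10 mM, blue lower and grey not called; black bars are list medians and the grey band spans the quartiles of all tested genes, -0.32 to 0.33. Medians run from -1.53 for ER chaperones to 1.96 for mitosis.

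Markers of cell types foreign to the culture were mostly under the filter or not called. Of 7 macrophage markers 4 lay under the filter (Adgre1, Csf1r, Itgam and Lyz2), as did 4 of 6 endothelial (Pecam1, Kdr, Emcn and Cldn5), 3 of 5 adipocyte (Cidec, Fabp4 and Lep) and 2 of 4 epithelial markers (Epcam and Krt18), and none of those tested was called. Their summed levels ran, over the 4 control arrays, from 5.91 to 6.46 for macrophages, 4.86 to 5.34 for endothelium, 4.73 to 4.95 for adipocytes and 4.45 to 4.73 for epithelium. The macrophage sum was not low throughout, with Cd14 at 5.29 at 1 mM and 5.22 at 10 mM. The summed Schwann and neuronal markers, S100b and Tubb3, ran from 5.53 to 6.03 at 1 mM and were higher, at 6.77 to 7.15, at 10 mM. Tubb3, a tubulin of neurons, rose 2.41-fold, lost without 1 mM replicate 1 or 10 mM replicate 2 (adjusted p = 0.0751 and 0.0834), and S100b was not called (0.19). The part of such cells in the other changes was not tested.

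After Baf60c knockdown the same glucose contrast called 1936 genes higher (14.5%) and 1406 lower (10.6%), on arrays that share none with the control contrast. Medians of the lists stood side by side: -1.53 in control and -1.52 in knockdown cells for ER chaperones, -1.51 and -1.40 for serine and asparagine synthesis, 1.96 and 1.98 for mitosis, and 0.65 and 1.05 for sarcomere genes. Txnip changed by 5.89 and 6.54, and Slc7a11 by -6.04 and -6.17. The test of the difference between responses called 0 of 13308 genes in limma (0%), with 1049 (7.88%) at an unadjusted p under 0.05, a lowest adjusted p of 0.235, and 1 gene called with the trend and robust options. The SE of a difference is larger than that of either response, so responses that differ moderately would not be called. Angptl4 changed by 1.12 in control and 0.20 in knockdown cells (difference -0.92 ± 0.18, adjusted p = 0.417) and Fst by 2.12 and 1.17 (-0.95 ± 0.21, adjusted p = 0.417). Thbs1 went the other way, by 1.67 and 2.74 (1.07 ± 0.19, adjusted p = 0.336), as did Myom1, by 1.05 and 2.28 (1.23 ± 0.23, adjusted p = 0.389). All these values were chosen for mention after they were seen.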

How the data were processed

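Expression was measured in 8 samples, and the authors' deposited table held 1 log2 value per probe set and array. Per the submitters' processing notes these log2 values were made with RMA and the affy package; no version or probe set genome build is given in the sources used here. RMA brings arrays to a common distribution and compresses differences at low signal, so it can understate folds of dim genes and hides a change common to every transcript. Array medians over the tested genes ran from 5.89 to 6.02, and the values were used as deposited.

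Of 41345 probe sets, 23521 name 1 gene, 1814 several and 16010 none in the platform annotation, and only the first kind was used. Of these, 23328 matched a RefSeq gene of GRCm38.p6 by gene ID, which changed 0 symbols. Where a gene had several probe sets (1082 of 22180 genes), the one brightest on average across all 8 arrays stood for it, and further, dimmer probe sets of Car3, Ckm, Rrm2 and Slc2a1 changed by 0.62, 0.24, 0.11 and -0.26. Genes with a mean under the 40th percentile (2.30) were left out, leaving 13308. limma 3.58.1 (R 4.3.3, functions lmFit and eBayes) fitted 1 mean per group over all 8 arrays with no covariate, with 4 residual and 3.36 prior degrees of freedom. Tests were two-sided with Benjamini-Hochberg adjustment over all 13308 genes, and the script was tested on simulated data. The dishes behind the replicates are known only from the word independent in the design text. Same-numbered deviations of the control samples correlated at -0.02 across genes. This shows no shared replicate effect but cannot tell whether same-numbered samples were prepared together.

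The members and the 75 gene lists (1392 genes tested, 22 in more than 1 list) were chosen with earlier results of these data known, so counts of list members are a description. The genes named come from a rule: Txnip, Arrdc4 and the Smarcd3 probe set, the 12 largest called changes per direction among annotated genes, key members of each list that were tested, whether called or not, and up to 4 called members per list and direction with the smallest p. Promoter windows came from RefSeq (GRCm38.p6). Alternatives changed the arrays fitted, the filter, the scaling, the limma options, the choice of probe set, the replicate block and each replicate in turn.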

Additional observations from a re-analysis of the deposited data

How the results depend on the processing

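In 17 alternatives 0 of the genes called in the main setting were called in the opposite direction. The count of 3372 calls ranged from 2046 to 3251 when 1 of the 8 arrays was left out, from 1026 to 1714 for genes higher at 10 mM and from 966 to 1537 for genes lower. Leaving out a control array shrank it most: 2193 and 2046 without 1 mM replicates 1 and 2, and 2336 and 2060 without 10 mM replicates 1 and 2, where the lone array of a group is assumed to vary like the others. Fewer arrays are fitted there. The replicate block, which treats equal replicate numbers as pairs, gave 3111 calls with 88.7% of the main calls shared. Whether the numbers pair the samples is not known. Centring each array on its median turned the split of calls, to 1591 higher and 1840 lower, and so did the stricter filter (1686 and 1766) and leaving out 10 mM replicate 2 (1026 and 1034). With the trend and robust options the test of the difference between responses called 1 gene in place of 0. Those options also called 6 of 31 named genes that the main fit did not call, and the stricter filter 3 of 23. The direction of 11 genes that were not called was not stable. Centred arrays gave Fasn -0.0022, Gys1 -0.035 and Slc2a4 -0.027, and renewed quantile normalization gave Fos -0.053, Ogt 0.088 and Slc2a4 -0.089. With 1 array left out, Clcn1 ranged from -0.666 to 0.517, Dmd from -0.0011 to 0.308, Fasn ranged from -0.040 to 0.134, Fos from -0.0075 to 0.121, Gfpt1 from -0.033 to 0.243, Gys1 from -0.038 to 0.066, Ogt from -0.155 to 0.122, Ryr1 from -0.026 to 0.142, Slc2a4 from -0.401 to 0.445, Smarcd1 from -0.039 to 0.535 and Smarcd2 from -0.402 to 0.0029. The number of arrays and low signal limit what can be called.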
